A study of Caenorhabditis elegans with 19 samples.

Results

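The genes described here are sdc-1, sdc-2, sdc-3, dpy-21 and dpy-30, which encode the subunits of the Caenorhabditis elegans dosage compensation complex that do not belong to its condensin core. They were chosen by their WormBase gene names, and all 5 were found among the 21975 genes of each of the 3 expression tables. Poly(A) RNA of whole worm populations was sequenced with a directional kit, and levels were deposited as FPKM (fragments of a gene divided by the length of its transcript in kilobases and by the size of the library, so a level per length). At the L3 larval stage there were 4 libraries each of wild type (the N2 Bristol strain, WT), of strain WM458 carrying xol-1(ne4472), and of strain EKM198 carrying xol-1(ne4472) together with sex-1(gk829), both on the X chromosome. The strain with both mutations, called the double mutant below (xol-1 sex-1 in the plots), was also sampled at L1 (n = 4) and as early embryos (n = 3), for 19 libraries in 5 groups. L3 larvae had been fed for 24 h and L1 larvae for 3 h, and embryos came from bleached young adults. By its labelled genotype the double mutant differs from xol-1 in the sex-1 mutation, and from WT in both mutations. Each genotype is a separate strain, so strain and genotype cannot be told apart in any comparison. The labels give neither the molecular nature of the alleles nor the sex of the animals. Each library held many animals of all tissues, so fewer cells of a type and less RNA per cell cannot be told apart. Nothing states that the numbered replicates came from separate cultures, and p-values measure only the spread between these libraries.

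Dosage compensation in the worm lowers transcription of both X chromosomes in hermaphrodites (XX), so that X-linked output is close to that of males with a single X. SDC-2 is the hermaphrodite-specific protein that starts assembly of the complex on X, and SDC-3, a zinc finger protein, and DPY-30 act with it to bring the other subunits there. SDC-1, also a zinc finger protein, acts with SDC-2 and SDC-3 on X and in turning down the male-promoting gene her-1. DPY-21 is a Jumonji demethylase that converts dimethylated lysine 20 of histone H4 to the monomethylated form, which marks the compensated X chromosomes. DPY-30 is in addition a core subunit of the COMPASS-type complexes that methylate lysine 4 of histone H3, so its transcript serves more than dosage compensation. xol-1 is the switch gene that turns these events off in males, and sex-1 encodes a nuclear hormone receptor that reports the number of X chromosomes by repressing xol-1. Comparing the double mutant with xol-1 asks what a sex-1 mutation does to the transcripts of the complex when the switch gene is mutated as well.

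The genes differ in position and size in the Ensembl annotation of WBcel235. sdc-1 (WBGene00004745) lies on X at 16275763 to 16282534 on the plus strand, and its longest transcript has 3856 bases. sdc-2 (WBGene00004746) is also X-linked, at 11522707 to 11533450 on the plus strand, with 1 transcript of 9247 bases. It overlaps the antisense RNA gene anr-16 on the minus strand, which was not analysed here, and since the strand setting is not given, fragments of both genes cannot be told apart there. sdc-3 (WBGene00004747) lies on V at 15039148 to 15048207 on the minus strand, with 1 transcript of 6774 bases. dpy-21 (WBGene00001080) lies on V at 17936282 to 17949193 on the minus strand, and its longest transcript has 5666 bases. dpy-30 (WBGene00001088) lies on V at 12191519 to 12192385 on the plus strand and is short, with a longest transcript of 580 bases. The dpy-30 gene shares 113 bases with the downstream gene rnp-1 on the same strand, whose level at L3 was 28.8 to 44.4 FPKM, so a fragment in that stretch could have been assigned to either gene.

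Within each group the libraries were close to each other, with correlations across genes of 0.986 to 0.996. Total depth is unknown, but the steps between low values gave 20.9 to 35.0 fragments per FPKM and kilobase at L3, 14.2 to 19.9 at L1 and 28.2 to 35.7 in embryos. The L3 column sums ran from 1490760 to 1717680 FPKM while their upper quartiles stayed between 28.9 and 30.02 FPKM. The mutated genes themselves were weak checks of the labels. The sex-1 transcript was still present in xol-1 sex-1 L3 libraries, at 3.76 ± 0.408 FPKM (SD, n = 4) against 5.01 ± 0.863 in xol-1 and 4.68 ± 0.717 in WT, a difference from xol-1 of -0.33 on the log2 scale that did not pass the test (limma, adjusted p = 0.0504). The xol-1 transcript averaged 0.00621 FPKM in WT at L3, so at this stage it cannot check the labels.

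All 5 genes passed the filter of a mean of at least 1 FPKM over the 12 L3 libraries, and they were tested among 13502 genes. Differences are given as the first named genotype minus the second. For the double mutant against xol-1, 2 of the 5 genes (sdc-3 and dpy-21) were called at an adjusted p under 0.05, both higher, where 49.2% of all genes tested were called, 22.9% higher and 26.3% lower. For 3 of the 5 (sdc-2, sdc-3 and dpy-21) all 4 double mutant values lay above all 4 xol-1 values, where groups did not overlap for 43.3% of all genes, 20.3% higher and 23.0% lower. For xol-1 against WT, 1 of the 5 (dpy-30) was called, higher, where 30.7% of all genes were called, 16% higher and 14.7% lower. Groups overlapped there for all 5 genes, whereas they did not for 29.6% of all genes, 14.9% higher and 14.6% lower. For the double mutant against WT, 3 of the 5 (sdc-3, dpy-21 and dpy-30) were called, all higher, where 53.3% of all genes were called, 25.2% higher and 28.1% lower. Groups did not overlap for 4 of the 5, with sdc-1 lower and the 3 called genes higher, where this held for 49.8% of all genes, 23.5% higher and 26.3% lower. The median log2 difference of the 5 genes was 0.16, -0.10 and 0.24 in the 3 comparisons, and that of all genes was -0.02, -0.00 and -0.03. The shares called among the 5 genes were thus near those of the whole table, and the 3 comparisons share their libraries pairwise.

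**Figure D1:**
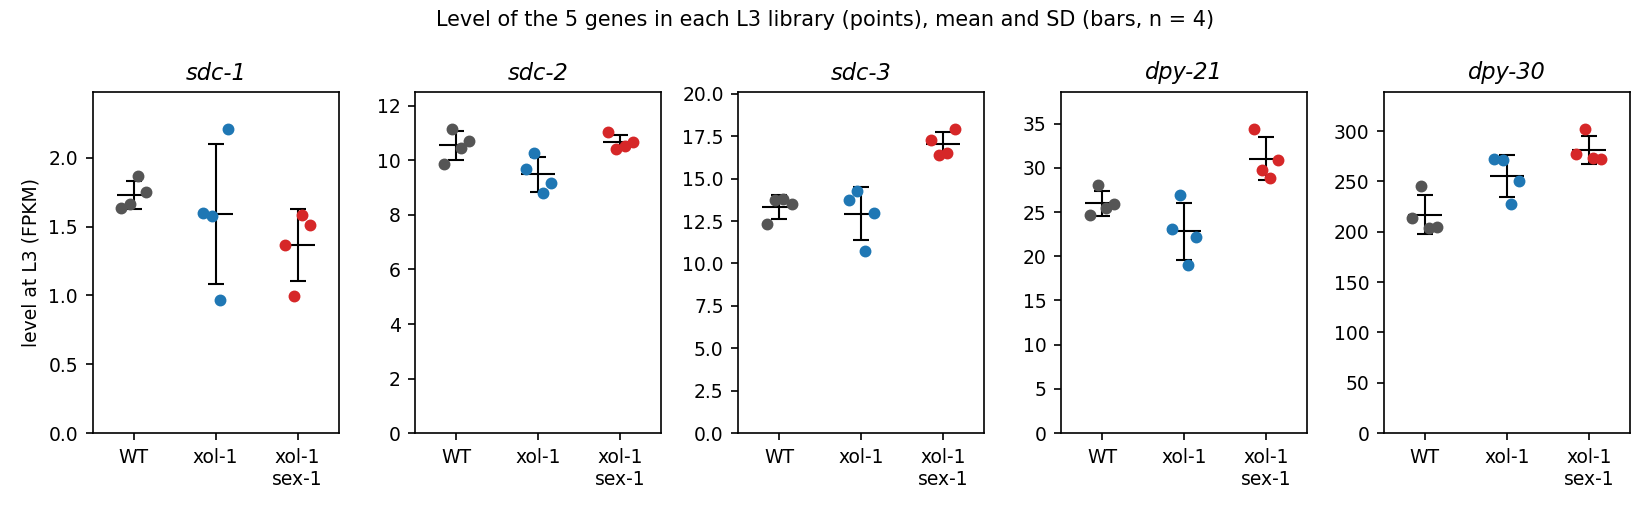
Level in FPKM (vertical axes, starting at 0) of each gene in the 12 L3 libraries, by genotype (points), with the mean and SD of each group of 4 (black bars). The sdc-3 and dpy-21 points of the double mutant lie above every xol-1 point, the dpy-30 points of the double mutant lie above every WT point, and the sdc-1 points are low and spread widely.

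sdc-2, the gene that starts loading, was not called in any of the 3 comparisons. Its level was 9.87, 11.2, 10.5 and 10.7 FPKM in WT replicates 1 to 4, and 9.69, 10.3, 8.81 and 9.16 FPKM in xol-1. In the double mutant it was 11.04, 10.4, 10.5 and 10.7 FPKM. The double mutant values all lay above those of xol-1 but inside the range of WT. The ratio of mean levels of the double mutant to xol-1 was 1.13, a log2 difference of 0.16 ± 0.07 (SE; 95% interval 0.0075 to 0.31) that did not pass the test with limma after Benjamini-Hochberg adjustment (adjusted p = 0.0769). That difference passed the limma test with columns rescaled to the same total (0.25, adjusted p = 0.0162), by the median of ratios (0.18, adjusted p = 0.0448), and with plain eBayes moderation (0.16, adjusted p = 0.0454). Rescaling to the same total moved the median of all genes from -0.02 to 0.08, and relative to that median sdc-2 was at 0.17 before and 0.18 after. xol-1 against WT gave -0.14 (95% interval -0.29 to 0.0086, limma adjusted p = 0.144), and -0.26 with columns rescaled to the same total (limma adjusted p = 0.0172), which was -0.14 relative to the median of all genes on either scale. The difference of the double mutant from WT was 0.02, with an interval of -0.13 to 0.17 (limma adjusted p = 0.861), and its sign turned to -0.01 with columns rescaled to the same total, while relative to the median of all genes it was 0.05 on either scale. The sdc-2 mean of the double mutant was 1.01 times that of WT.

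sdc-3 was higher in the double mutant than in xol-1 and than in WT. It was at 12.3, 13.8, 13.8 and 13.5 FPKM in WT, and at 13.7, 14.3, 10.7 and 12.99 FPKM in xol-1. Its double mutant values were 17.3, 16.4, 16.5 and 17.95 FPKM. Every double mutant value lay above all 8 others, while WT and xol-1 overlapped. The mean was 1.32 times that of xol-1 (log2 difference 0.38 ± 0.08 SE, 95% interval 0.20 to 0.56, limma adjusted p = 0.00253) and 1.28 times that of WT (0.33, interval 0.15 to 0.51, limma adjusted p = 0.005). xol-1 and WT differed by -0.05 (interval -0.23 to 0.13, limma adjusted p = 0.701), and the sign of this small difference turned to 0.03 without xol-1 replicate 3. The rise against xol-1 was larger than the log2 difference of 83.1% of all genes tested.

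sdc-1 had the lowest level of the 5 genes at L3 and, in both mutants, the widest spread relative to its mean. It was at 1.64, 1.66, 1.86 and 1.75 FPKM in WT, and at 1.60, 1.58, 0.970 and 2.21 FPKM in xol-1. Its double mutant values were 1.37, 0.995, 1.59 and 1.51 FPKM. All 4 double mutant values lay below the WT values, and both mutant groups overlapped. By the step between low values these levels stand for about 80.3 to 229.8 fragments in a library, counting error only. No difference passed the test with limma after Benjamini-Hochberg adjustment. It was -0.12 (interval -0.43 to 0.19, adjusted p = 0.525) for the double mutant against xol-1 and -0.10 (interval -0.41 to 0.21, adjusted p = 0.659) for xol-1 against WT. It was -0.21 (interval -0.52 to 0.10, adjusted p = 0.230) for the double mutant against WT. Single libraries moved these values. Without xol-1 replicate 3, xol-1 against WT turned to 0.03 and the double mutant against xol-1 was -0.24. The latter was -0.0066 without xol-1 replicate 4 and -0.037 without double mutant replicate 2. The double mutant against WT was at -0.13 without double mutant replicate 2 and -0.34 at a pseudocount of 0.1. None of these differences passed the test.

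dpy-30, which acts with SDC-3 and in COMPASS, was the most abundant of the 5 at L3 and was higher in both mutant strains than in WT. It was at 214, 245, 204 and 204 FPKM in WT, and at 273, 271, 228 and 251 FPKM in xol-1. Its double mutant values were 277, 303, 273 and 272 FPKM. Only WT replicate 2 reached into the xol-1 range, and all double mutant values lay above WT, while the mutants overlapped. Against WT the mean was 1.30 times as high in the double mutant (log2 difference 0.38 ± 0.08 SE, interval 0.21 to 0.54, limma adjusted p = 0.0012) and 1.18 times as high in xol-1 (0.24, interval 0.07 to 0.40, limma adjusted p = 0.0328). The xol-1 call was not stable. It was lost in the fit of only these genotypes (0.24, limma adjusted p = 0.0610), with columns rescaled to the same total (0.10, limma adjusted p = 0.261), and when any of WT replicates 1, 3 and 4 or xol-1 replicates 1, 2 and 4 was left out (limma adjusted p of 0.0597 to 0.0935). The double mutant and xol-1 differed by 0.14 (interval -0.03 to 0.31, limma adjusted p = 0.147), or by 0.24 with columns rescaled to the same total (limma adjusted p = 0.0107). Relative to the median of all genes the difference was 0.16 as deposited and 0.17 rescaled. For scale, over the 2557 genes tested whose longest transcript has at most 700 bases, the median log2 difference was -0.16, 0.02 and -0.17 for the double mutant against xol-1, xol-1 against WT and the double mutant against WT.

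dpy-21, the histone H4 demethylase, had the largest difference of the 5 between the double mutant and xol-1. It was at 24.7, 28.01, 25.5 and 25.9 FPKM in WT, and at 23.1, 26.9, 19.0 and 22.2 FPKM in xol-1. Its double mutant values were 34.4, 29.8, 28.9 and 30.9 FPKM. The double mutant values all lay above those of both other genotypes, and xol-1 overlapped WT. The mean was 1.36 times that of xol-1 (log2 difference 0.43 ± 0.09 SE, interval 0.24 to 0.63, limma adjusted p = 0.00193), larger than the difference of 85.6% of all genes tested. Against WT it was 1.19 times as high (0.24, interval 0.05 to 0.44, limma adjusted p = 0.0393). That second call was lost without the filter on low values (0.24, limma adjusted p = 0.0545), with columns rescaled to the same total (0.22, limma adjusted p = 0.0781), and when any of WT replicates 1, 3 and 4 or double mutant replicates 1, 2 and 4 was left out (limma adjusted p of 0.0509 to 0.113). xol-1 against WT gave -0.19 (interval -0.39 to 0.0074, limma adjusted p = 0.136), and this passed as lower with columns rescaled to the same total (-0.32, limma adjusted p = 0.0210) and without xol-1 replicate 2 (-0.27, limma adjusted p = 0.0226).

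xol-1 replicate 3 was the lowest of its group for all 5 genes and for all 5 condensin subunits, while it was the lowest for 30.6% of all genes tested. WT replicate 1 was likewise the lowest of its group for 4 of the 5 genes, all 5 condensin subunits and 29.3% of all genes tested. Genes with short transcripts (n = 2485) stood at a median log2 difference of 0.13 in xol-1 replicate 3 against its other replicates. The median of all genes there was 0.0044, and that of short genes in xol-1 replicates 1, 2 and 4 was -0.075, -0.093 and 0.021. dpy-30, itself short, was at -0.22 in replicate 3. A part of transcript length in these low values was not tested. Without xol-1 replicate 3, sdc-3 (0.30, limma adjusted p = 0.00396) and dpy-21 (0.35, limma adjusted p = 0.00448) were still called higher in the double mutant than in xol-1. Rescaling the columns to the same total moved the median of all genes to -0.12 in xol-1 against WT. Relative to that median dpy-30 stood at 0.22 and dpy-21 at -0.20, close to the 0.24 and -0.19 they had with the values as deposited.

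**Figure D2:**
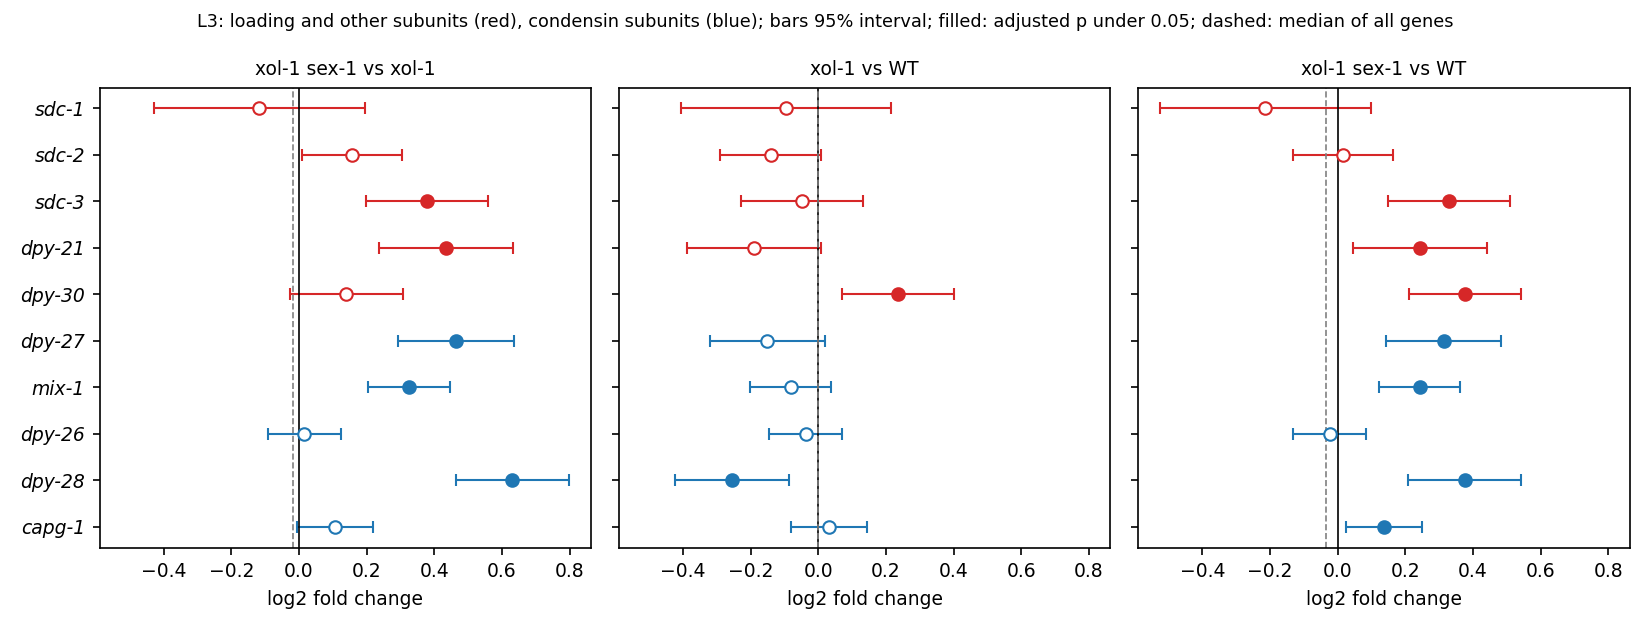
Log2 fold change of log2(FPKM + 1) at L3 in the 3 comparisons (horizontal axes), with 95% intervals, for the 5 genes described here (red) and the 5 condensin subunits (blue). Filled points have an adjusted p under 0.05, the solid line marks 0 and the dashed line the median of all genes. sdc-3, dpy-21, dpy-27, mix-1 and dpy-28 are filled on the higher side for the double mutant against xol-1, while dpy-26 lies at 0.01 there.

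The condensin core of the complex was set beside these genes. It consists of the SMC proteins DPY-27 and MIX-1 and of DPY-26, DPY-28 and CAPG-1. Of these only DPY-27 is particular to dosage compensation, and the others also work in the condensins that compact mitotic chromosomes. For the double mutant against xol-1, 3 of the 5 core genes were called higher (limma with Benjamini-Hochberg adjustment). Of all genes tested, 22.9% were called higher there and 49.2% in either direction. dpy-28 rose by 0.63 on the log2 scale (adjusted p = 4.11e-05), dpy-27 by 0.46 (adjusted p = 0.000461) and mix-1 by 0.32 (adjusted p = 0.000489), whereas dpy-26 was at 0.01 (adjusted p = 0.828) and capg-1 at 0.11 (adjusted p = 0.111). In xol-1 against WT dpy-28 alone was called, lower by the limma fit (-0.25, adjusted p = 0.0244). Of all genes, 14.7% were called lower there and 30.7% in either direction. Against WT, the double mutant was also higher for dpy-27, mix-1 and dpy-28, by 0.31, 0.24 and 0.38, and for capg-1 by 0.14 (limma adjusted p = 0.0415). That made 4 of the 5 higher, where 25.2% of all genes were called higher and 53.3% in either direction. The median log2 difference of the core was 0.32, -0.08 and 0.24 in the 3 comparisons.

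Ratios within a library do not depend on how libraries were scaled to each other, and they are given as descriptions without a test. Relative to the median of the 5 condensin subunits, sdc-3 was 0.28 higher on the log2 scale in the double mutant than in xol-1, with groups that did not overlap, and dpy-21 was 0.33 higher, with overlap. The same differences were 0.05 for sdc-2, 0.02 for dpy-30 and -0.31 for sdc-1, all with overlap. With the geometric mean of the subunits in place of their median, sdc-3 was 0.09 higher and its groups overlapped. With that reference dpy-21 was 0.13 higher, sdc-2 at -0.15, dpy-30 at -0.18 and sdc-1 at -0.50. The sdc-1 ratio to the median ran from -0.12 without xol-1 replicate 4 to -0.50 without xol-1 replicate 3, and was -0.15 without double mutant replicate 2. The sdc-2 and dpy-30 ratios thus changed sign with the reference. In xol-1 against WT the dpy-30 ratio to the median was 0.24 higher and the sdc-2 ratio -0.16, both without overlap, and the latter was -0.051 with the mean as reference. In the double mutant against WT, the ratios to the median did not overlap for sdc-1 (-0.49), sdc-2 (-0.11), sdc-3 (0.23) and dpy-30 (0.25), while dpy-21 (0.13) overlapped. There sdc-2 was at -0.20 with the mean as reference.

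Relative to sdc-2, sdc-3 stood at 1.27 ± 0.0387 in WT, 1.36 ± 0.0965 in xol-1 and 1.60 ± 0.0581 in the double mutant (SD, n = 4 each). The double mutant ratio was 1.17 times that of xol-1, and all of its values lay above both other groups. The dpy-21 ratio was 2.47 ± 0.0458, 2.40 ± 0.189 and 2.90 ± 0.158 in the same order, 1.21 times higher in the double mutant than in xol-1 and again without overlap. The dpy-30 ratio was 20.6 ± 1.46 in WT and lay above it without overlap in both mutants, at 26.9 ± 1.03 and 26.4 ± 1.78. The sdc-1 ratio was 0.164 ± 0.0120, 0.168 ± 0.0547 and 0.128 ± 0.0244, and its groups overlapped.

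**Figure D3:**
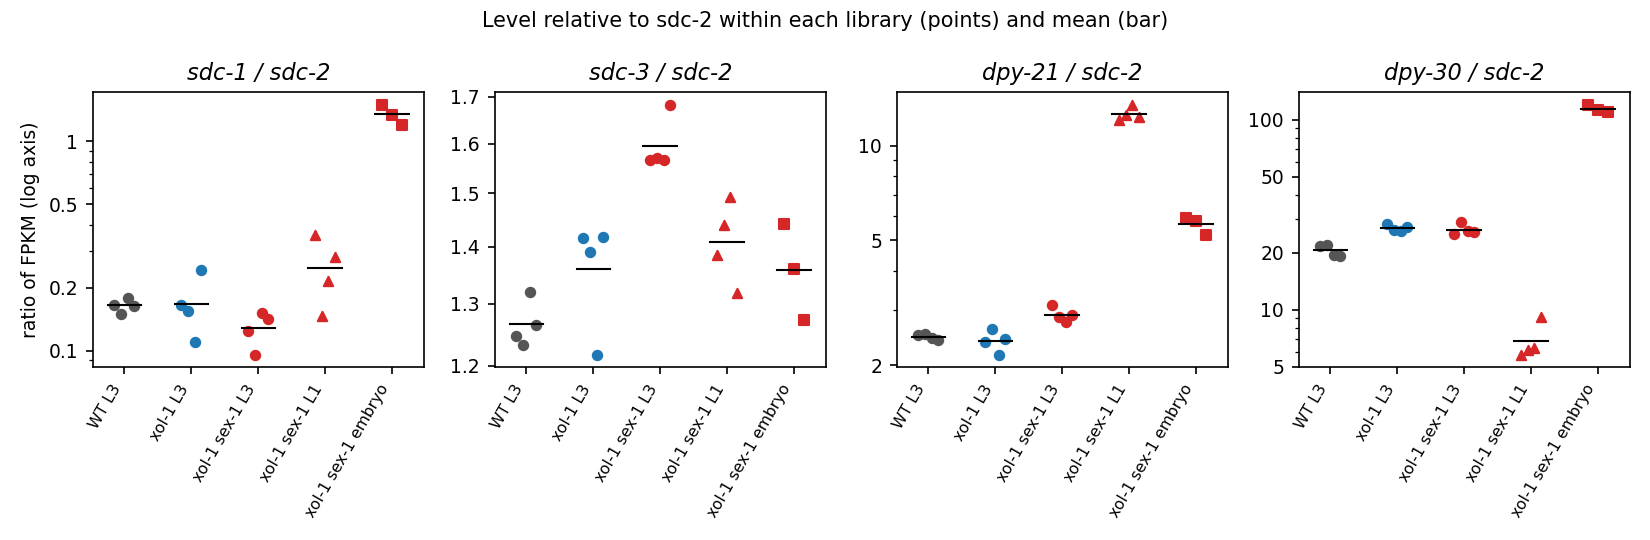
Ratio of the FPKM of each gene to that of sdc-2 in the same library (vertical axes, logarithmic and different in each panel), for the 3 L3 genotypes (circles), xol-1 sex-1 L1 (triangles) and xol-1 sex-1 early embryos (squares), with group means as bars. The sdc-3 and dpy-21 ratios of the double mutant lie above the other L3 groups, the dpy-21 ratio averages 12.6 at L1, and the dpy-30 ratio averages 114 in embryos.

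Other genes of the pathways these subunits act in were counted in the same fits (limma, Benjamini-Hochberg over all genes). Beside these counts and those of the histone methylation genes below, 49.2% of all genes were called in the double mutant against xol-1. The shares were 30.7% in xol-1 against WT and 53.3% in the double mutant against WT. Of the 7 listed genes of sex determination downstream of the switch, 6 were tested. For the double mutant against xol-1, the male-promoting genes went both ways in limma, with fem-2, a phosphatase (0.30, adjusted p = 0.0045), and fem-3 (0.29, adjusted p = 0.00973) higher and fem-1 lower (-0.15, adjusted p = 0.0220). The calpain tra-3, which promotes the female fate, was lower (-0.19, limma adjusted p = 0.0042). In xol-1 against WT 1 was higher (fem-1) and 1 lower (fem-3), and for the double mutant against WT 3 were higher (tra-2, fem-1 and fem-2) and 1 lower (tra-3). her-1, the male-promoting target that SDC proteins repress, was below the filter, with means of 0.0996, 0.0585 and 0.192 FPKM in WT, xol-1 and xol-1 sex-1 at L3. Of the 6 genes of the X signal and switch, only sex-1 and ceh-39, another X-linked signal gene, were tested. ceh-39 was higher in the double mutant than in xol-1 (0.30, adjusted p = 0.0487), and no other call was made in that list.

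DPY-30 and DPY-21 have partners in histone methylation. Of 8 listed COMPASS-related genes 6 were tested. For the double mutant against xol-1, limma called the methyltransferase gene set-16 (0.30, adjusted p = 0.00992) and cfp-1 (0.19, adjusted p = 0.0253) higher and wdr-5.1 (-0.30, adjusted p = 0.00201) and swd-2.2 (-0.22, adjusted p = 0.0274) lower. In xol-1 against WT, where dpy-30 was higher, wdr-5.1 alone was called (0.21, limma adjusted p = 0.0269), and for the double mutant against WT swd-2.2 alone (-0.22, limma adjusted p = 0.0303). set-1, which places the monomethyl mark on lysine 20 of histone H4, was lower in both mutants than in WT (-0.30 in xol-1 and -0.27 in the double mutant, limma adjusted p = 0.00119 and 0.00127). set-4, which places the further methyl groups that DPY-21 acts on, was lower in the double mutant than in xol-1 (-0.27, limma adjusted p = 0.00276) and than in WT (-0.27, limma adjusted p = 0.00234). ash-2, a COMPASS gene, was listed at 0 in all L3 libraries but averaged 16.9 FPKM in embryos, and a listed 0 is not read as absence here.

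Markers of tissues and of larval timing differed between the same genotypes, and their part in the results above was not tested. Beside the marker counts, 22.9% of all genes were called higher and 26.3% lower in the double mutant against xol-1. The shares were 16% and 14.7% in xol-1 against WT, and 25.2% and 28.1% in the double mutant against WT. Of 11 germline markers 6 were tested. Against xol-1 5 were higher in the double mutant, against WT also 5, and in xol-1 3 were higher than in WT. glh-4, deps-1 and gld-1 averaged 2.87, 3.05 and 3.44 FPKM in the double mutant. Their means were 0.721, 0.455 and 0.598 FPKM in WT and 1.01, 1.26 and 1.02 FPKM in xol-1. They passed the filter only with the double mutant libraries, which favoured their being tested and called higher there. The summed level of the 11 markers was 28.8 to 36.9 FPKM in the double mutant, 11.5 to 18.2 in xol-1 and 7.61 to 12.6 in WT. pgl-1 was near 0 in every group, with highest values of 0.144 FPKM in WT, 0.0514 in xol-1 and 0 in the double mutant at L3. Its highest value in embryos was 0.0744 FPKM. Of 4 muscle markers 3 were higher in the double mutant than in xol-1 and than in WT and none was called between xol-1 and WT. The muscle sums were 1119.8 to 1347 FPKM in the double mutant, 600.3 to 888 in xol-1 and 714 to 822 in WT. All 3 intestinal markers tested, of 4, were higher in the double mutant than in either other genotype, and act-5 was also higher in xol-1 than in WT. The intestinal sums were 1069 to 1263, 794 to 1039.7 and 656 to 763 FPKM in the same order. act-5 made up most of them, with means of 1025, 852 and 657 FPKM. The only hypodermal marker tested of 3, dpy-7, was lower in both mutants than in WT. The hypodermal sums were 245 to 278, 221 to 275 and 313 to 429 FPKM in the same order. dpy-7 made up nearly all of these sums. elt-3 was listed at 0 in all L3 libraries, and bli-1 reached at most 0.103 FPKM there. Of 4 neuronal markers, the double mutant had 1 higher and 1 lower than xol-1, and 2 higher and 1 lower than WT. The neuronal sums were 506 to 559.7, 397 to 498 and 449 to 491 FPKM in the same order. Most of them came from snb-1, with means of 460, 384 and 397 FPKM, while rab-3 averaged 29.5, 42.0 and 38.6 FPKM. Of 6 genes of developmental timing 5 were tested. The double mutant had 2 higher and 1 lower than xol-1 and 3 lower than WT, and in xol-1 2 were lower than in WT. Their sums were 221 to 252, 217 to 241 and 257 to 288 FPKM, with lin-41 listed at 0 in WT and xol-1. The male markers mab-3 and her-1 summed to 0.868 to 1.96 FPKM over the 12 L3 libraries, and mab-3, the only one tested, was not called.

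The order of the 5 levels was the same in every L3 genotype. dpy-30 was highest, followed by dpy-21, sdc-3, sdc-2 and sdc-1, and no neighbours in that order overlapped within a genotype. dpy-30 made up 80.7%, 84.6% and 82.4% of the summed FPKM of the 5 genes in WT, xol-1 and the double mutant. FPKM is a level per length, so this is not an order of fragment numbers. dpy-30 has the shortest longest transcript of the 5 genes, with 580 bases, and a part of length in this order was not tested.

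The balance of the subunits was very different at the earlier stages of the double mutant, for which no other genotype was analysed here. Each stage is a separate table whose scaling to the others is not given, and the library names differ by stage, so levels across stages are described without a test. dpy-21 was at 137, 132, 131 and 145 FPKM in the 4 L1 libraries, against 29.0, 31.3 and 32.2 FPKM in the 3 embryo libraries and 28.9 to 34.4 FPKM at L3. The L1 mean was 4.40 times the L3 mean, a ratio above that of 98.4% of 14588 genes, and 4.42 times the embryo mean, above that of 85.6% of 15560 genes. Within its library dpy-21 ranked above 95.1% to 95.5% of all genes at L1 and above 74.9% to 77.6% at L3. Against the median of the condensin subunits it stood at 3.81 ± 0.0945 at L1, 0.834 ± 0.0682 at L3 and 0.623 ± 0.0657 in embryos, so the high L1 value was also seen within libraries.

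dpy-30 was lowest at L1. It was at 591, 609.5 and 682 FPKM in embryos and at 65.9, 65.3, 61.0 and 108 FPKM at L1, with L1 replicate 4 apart from the other libraries, against 272 to 303 FPKM at L3. The L1 mean was 0.266 of the L3 mean, a ratio below which 10.5% of genes lay, and 0.119 of the embryo mean, below which 10.1% lay. dpy-21 was the highest of the 5 genes at L1, and dpy-30 at the other stages. dpy-21 made up 57.2% ± 4.01 of the 5-gene sum at L1, against 9.09% ± 0.785 at L3 and 4.55% ± 0.177 in embryos, and dpy-30 made up 30.8% ± 4.85, 82.4% ± 1.24 and 92.5% ± 0.234.

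The SDC genes also differed by stage. sdc-1 was at 7.37, 7.27 and 7.42 FPKM in embryos and at 4.05, 1.56, 2.08 and 3.28 FPKM at L1, against 0.995 to 1.59 FPKM at L3. Its L3 mean was 0.186 of the embryo mean, with 14.4% of genes below that ratio, and its L1 values were the most scattered of the 5 genes in the 5 groups, with an SD of 41.3% of the mean. sdc-2 was at 4.92, 5.42 and 6.20 FPKM in embryos and at 11.4, 10.6, 9.67 and 11.7 FPKM at L1, a level that L3 shared (10.4 to 11.04 FPKM). sdc-3 was at 7.09, 7.37 and 7.89 FPKM in embryos, at 15.8, 15.2, 14.4 and 15.4 FPKM at L1 and at 16.4 to 17.95 FPKM at L3. The mean of sdc-2 was 1.94 times and that of sdc-3 2.29 times as high at L3 as in embryos. In embryos sdc-3 and sdc-1 overlapped, with a ratio of means of 1.01, and sdc-2 was the lowest of the 5, whereas sdc-1 was the lowest at L1 and L3. The sdc-3 to sdc-2 ratio was 1.36 ± 0.0843 in embryos, 1.41 ± 0.0747 at L1 and 1.60 ± 0.0581 at L3, while the sdc-1 to sdc-2 ratio was 1.35 ± 0.150, 0.249 ± 0.0892 and 0.128 ± 0.0244.

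**Figure D4:**
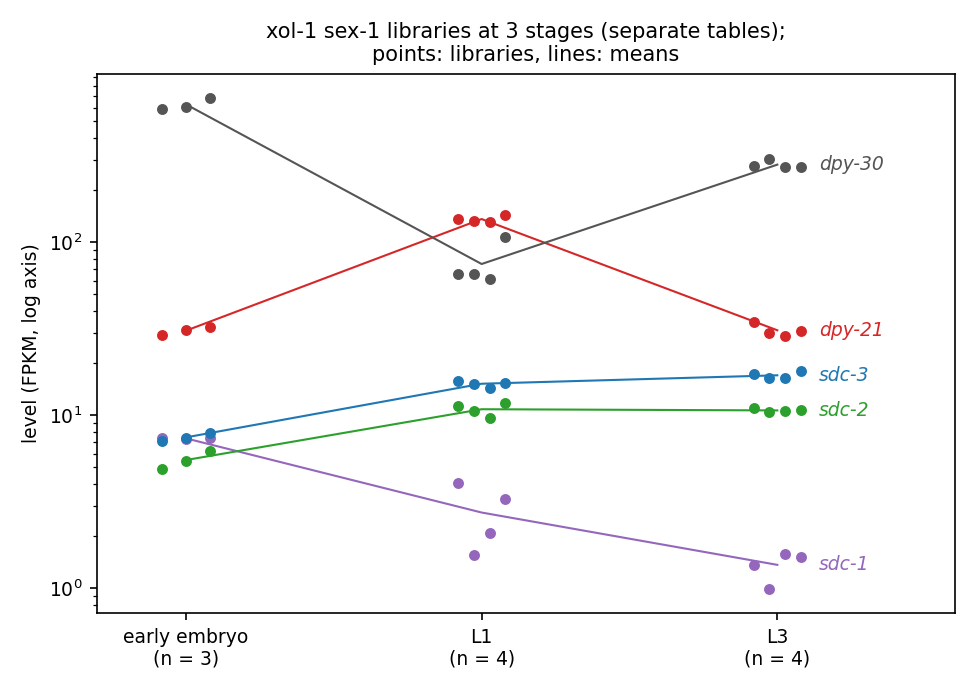
Level in FPKM (logarithmic vertical axis) of the 5 genes in xol-1 sex-1 early embryos (n = 3), L1 (n = 4) and L3 (n = 4), with libraries as points and lines through the means. dpy-21 and dpy-30 cross between stages, with dpy-21 averaging 136 FPKM and dpy-30 74.9 FPKM at L1, and sdc-1 averages 7.36 FPKM in embryos and 1.37 FPKM at L3.

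Markers are set beside the stages as well. The yolk protein gene vit-2, which is expressed in the adult intestine, averaged 3078 FPKM in the embryo libraries against 0.0606 FPKM at L3, and the 11 germline markers summed to 1054 to 1365 FPKM in embryos and to 28.8 to 36.9 FPKM at L3. Their part in the embryo levels was not tested.

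For each gene the tested genes with the most similar pattern over the 12 L3 libraries were taken as those with the smallest root mean square difference of log2(FPKM + 1) after subtraction of each gene's mean. For sdc-3 these were F23H11.4 (0.0409), ubr-1 (0.0466) and F17C11.26 (0.0467), against a variation of sdc-3 itself of 0.194. For dpy-21 they were F09C8.2 (0.0435), mcd-1 (0.0456) and ccct-1 (0.0474), against 0.213. The condensin gene dpy-27 ranked 12 of all genes for sdc-3 and 11 for dpy-21, while dpy-21 ranked 203 for sdc-3. For sdc-2 they were rig-4 (0.0319), scyl-1 (0.0345) and rei-2 (0.0381), against 0.0909. For dpy-30 they were slc-25A46 (0.0442), T07A9.14 (0.0501) and cdc-73 (0.0506), against 0.181, and the nearest subunit of the complex, capg-1, ranked 541. For sdc-1 the smallest differences, for M57.1 (0.119), F32B4.1 (0.120) and taf-11.3 (0.127), stood against its own variation of 0.190.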

How the data were processed

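Poly(A) RNA was sequenced from 19 libraries in 5 groups of genotype and stage. The authors deposited FPKM values in 3 tables, 1 per stage. Per the submitters' processing notes, cutadapt 2.3, FastQC 0.11.8, Salmon 1.9.0, DESeq2 1.42.0 and WBcel235 were used, but the step that made the FPKM and any scaling between libraries are not given in the sources used here, nor is the strand setting. A further 13 columns, of WT and xol-1 at L1 (7) and in early embryos (6), match no sample here and were not used. Whether those genotypes share the L1 and embryo levels of the double mutant was therefore not examined. Per the labels' protocols, L1 larvae were fed for 3 h, L3 larvae for 24 h, and embryos came from bleached young adults.

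FPKM are not counts, so limma 3.58.1 (R 4.3.3, statmod 1.5.0) was fitted to log2(FPKM + 1), a pseudocount of 1, for genes averaging 1 FPKM or more over the 12 L3 libraries, with eBayes trend and robust. Fold changes on this scale understate those of low genes. Tests were two-sided and adjusted by Benjamini-Hochberg over 13502 genes, with a threshold of 0.05. The procedure was also run on simulated data with independent deviations for each gene. These lack shifts shared by the genes of a library, so that run cannot check the calls made here. Positions and symbols came from Ensembl release 115 (21975 identifiers matched, 19860 with a symbol). Python 3.11.15, numpy 2.4.6, pandas 2.3.3 and matplotlib 3.10.9 were used for the rest. Depth per library comes from the step between low values of genes with 1 transcript of at least 1000 bases.

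The 5 genes, the gene lists and the tests were chosen with earlier results of these data known. The text names the 5 genes, listed genes with an adjusted p under 0.05 in at least 1 comparison, genes needed to describe a list at 0 or a check of the labels, and for each of the 5 genes the 3 genes with the smallest difference in pattern. Alternatives were columns rescaled to the same total or by autosomal median ratios, no filter on low values, a minimum mean of 5 FPKM, a pseudocount of 0.1 or 0.5, fits of only 2 genotypes, plain eBayes, replicate number as a block, other condensin references, and leaving out each replicate.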

Additional observations from a re-analysis of the deposited data

Results flagged for a closer look

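With 4 libraries per group, a library was looked at again where its gap to the nearest other value exceeded Dixon's 95% critical value of 0.829 of the group's range. Of 20 groups of 4 tested over the 5 genes, 2 did, and chance flags about 1 in 20. Both were dpy-30 in xol-1 sex-1. L3 replicate 2 was at 303 FPKM, above 277, 273 and 272 in the other libraries. L1 replicate 4 was at 107.5 FPKM, above 65.9, 65.3 and 61.0. The dpy-30 log2 difference of that L1 library to the mean of the others was 0.74, above 98.6% of 13157 genes and above 95.7% of the 2352 short ones, where the median of short genes was -0.02. The L1 mean of dpy-30 without it was 64.1 FPKM, against 74.9 with it.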

How the results depend on the processing

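The number of genes called in each comparison stayed within 1.5 times its main value under all 17 alternatives. sdc-3 and dpy-21 in the double mutant against xol-1, and sdc-3 and dpy-30 in the double mutant against WT, were called under all of them. With columns rescaled to the same total, 4 of the 5 genes were called in the double mutant against xol-1 (sdc-2 at 0.25 and dpy-30 at 0.24 joined) and 2 in xol-1 against WT (sdc-2 at -0.26 and dpy-21 at -0.32 joined, dpy-30 at 0.10 was lost). In the double mutant against WT, dpy-21 was lost at 0.22 and sdc-2 turned to -0.011 under that scaling, and dpy-21 was lost at 0.24 without the filter. sdc-2 in the double mutant against xol-1 passed at 0.18 with the median of ratios and at 0.16 with plain eBayes. In the fit of only WT and xol-1, dpy-30 was lost at 0.24 and 0 of the 5 genes were called. The split of calls moved with that scaling, from 46.6% to 63.3% higher in the double mutant against xol-1 and from 52.0% to 26.5% higher in xol-1 against WT. The cause was not tested.

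Leaving out 1 replicate gave these ranges. In xol-1 against WT, 0 to 1 genes of the 5 were called, dpy-30 ran from 0.20 to 0.30, dpy-21 from -0.27 to -0.11, sdc-1 from -0.21 to 0.029, and for sdc-3 the values were -0.10 to 0.032. Without xol-1 replicate 3 sdc-1 turned to 0.029 and sdc-3 to 0.032. In the double mutant against xol-1, sdc-2 ran from 0.13 to 0.19 and passed at 0.19 without xol-1 replicate 2. In the double mutant against WT, sdc-2 ran from -0.012 to 0.042, with -0.012 without WT replicate 1, and dpy-21 from 0.19 to 0.28. With the geometric mean of the condensin subunits as reference, the log2 ratio differences in the double mutant against xol-1 were -0.15 for sdc-2, 0.086 for sdc-3, 0.13 for dpy-21 and -0.18 for dpy-30. That of sdc-2 was -0.051 in xol-1 against WT and -0.20 in the double mutant against WT. For sdc-1, 1 of the 3 most similar genes was shared at a pseudocount of 0.1.

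The labels do not state that the replicate numbers pair the libraries. Correlations of same-numbered libraries' deviations ran from -0.179 to 0.244, which cannot show whether they were paired. With replicate number as a block, 6538, 4004 and 7081 genes were called in the double mutant (xol-1 sex-1) against xol-1, xol-1 against WT and the double mutant against WT, and no call of the 5 genes changed. In the double mutant against xol-1 the block gave dpy-21 0.43 (limma adjusted p = 0.00249). sdc-1 rested on about 80.3 to 229.8 fragments per L3 library, and its SD was 5.96% of the mean in WT and 31.9% in xol-1.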
